A study of Drosophila melanogaster with 14 samples.

Results

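The Antennapedia complex is the cluster of homeotic (Hox) genes of Drosophila melanogaster that gives the head and the front of the thorax their identity. Its binding sites were taken as every peak that shared at least 1 bp with a 350-kb window of chromosome arm 3R, from 2480000 to 2830000 on the dm3 build of the genome. This window, set by position alone, held 97 of the 29537 peaks in the 5 deposited lists. Of these, 17 of 6491 were Yki peaks and 30 of 6328 GAF peaks of wing discs, and 16 of 3749 were Yki peaks, 29 of 6470 GAF peaks and 5 of 6499 H3K4me3 peaks of embryos.

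The peaks came from ChIP-seq, in which an antibody against a protein or a histone mark pulls down the chromatin that holds it and the recovered DNA is sequenced. A peak is a stretch where the recovered fragments are dense. Flies of all groups were Iso1, from which the reference genome was made, with no transgene, mutation or treatment named in the labels. The wing disc groups were wing imaginal discs dissected from wandering larvae at the last larval stage (L3), with 1 Yki library, 2 GAF libraries and 2 libraries of input chromatin. The embryo groups were whole embryos collected 8 to 16 hours after egg laying, with 3 Yki, 3 GAF and 2 H3K4me3 libraries and 1 of input. Each antibody and tissue has 1 peak list, so no value below has a replicate error and no difference between lists could be tested. Depth is unknown, and whole embryos and whole discs mix cells in which a given Hox gene is on with cells in which it is off.

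In order along the chromosome the window holds labial (lab), proboscipedia (pb), Deformed (Dfd), Sex combs reduced (Scr) and Antennapedia (Antp). Their order broadly follows the order of the body parts they pattern, from the front backwards, though not strictly for pb. Each encodes a homeodomain transcription factor. lab acts in the anterior head and in the midgut, pb in the mouthparts and Dfd in the mandibular and maxillary segments. Scr acts in the labial segment and the front of the thorax, and Antp in the thorax, where it promotes leg over antennal fate. Between them lie genes with other roles: the early patterning genes zen, bcd and ftz, the zen copy zen2, the cell adhesion gene Ama, and a group of 7 cuticle genes named Ccp84Aa to Ccp84Ag. All 5 Hox genes were found, in this order, in a RefSeq table of a later build (Release 6), which was used for names and order only.

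Hox genes stay on or off through larval life because Polycomb proteins keep them silent outside their own segments and Trithorax proteins keep them active within. GAGA factor (GAF), the product of Trithorax-like, binds GA-rich DNA at promoters and at many of the response elements through which both systems act. Yorkie (Yki) is the coactivator that Hippo signalling holds back to limit growth, and it needs partners such as Scalloped to contact DNA. Trimethylated lysine 4 of histone H3 (H3K4me3) marks active promoters. The wing disc belongs to the thorax, where Antp acts.

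For orientation the window was cut into 5 sections, at the approximate dm3 positions with which it was defined. The low end (185 kb, up to 2664999) holds lab, pb and Dfd. The Scr interval runs from 2665000 to 2695000, the stretch between Scr and Antp to 2719999, the Antp interval from 2720000 to 2825000, and the high end to 2830000. These edges are approximate: in Release 6 the gap between Scr and Antp, which holds ftz, is longer than the stretch used here, so the Scr interval may hold ftz and may miss a part of Scr. No dm3 gene model was used, so the distance of a peak from a promoter was not measured.

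**Figure D1:**
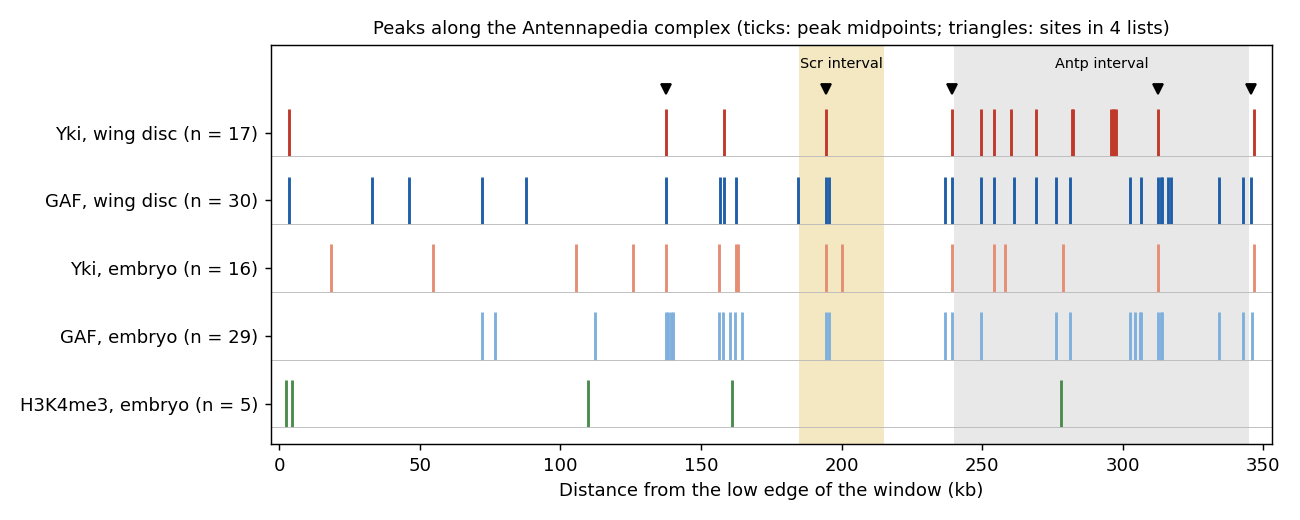
Midpoints of all 97 peaks (vertical ticks) by distance from the low edge of the window in kb, 1 row per list, with the number of peaks beside each list. Black triangles mark the 5 sites present in all 4 Yki and GAF lists, and shading marks the Scr and Antp intervals. No Yki or GAF peak lies in the 36.4 kb that begin inside the Scr interval, Yki in wing discs also has a bare stretch of 133.3 kb in the low end, and H3K4me3 has 4 peaks in the low end and 1 in the Antp interval.

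The complex was rich in GAF peaks in both tissues and poor in H3K4me3. GAF had 8.57 peaks per 100 kb in wing discs and 8.29 in embryos inside the window, against 5.23 and 5.34 over arms X, 2L, 2R, 3L and 3R. Yki had 4.86 peaks per 100 kb in wing discs inside the window, against 5.40 over the arms, and 4.57 in embryos, against 3.02. H3K4me3 had 1.43 peaks per 100 kb inside the window, against 5.38 over the arms.

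The window was also set beside 336 other windows of the same length, laid end to end along those arms. GAF peaks in wing discs numbered 30 in the complex, against a median of 18 in the other windows (quartiles 13 and 24), and 89.6% of the windows held fewer. For GAF in embryos the complex had 29 peaks, against a median of 17, with fewer in 86.6% of windows, and for Yki in embryos 16, against a median of 10, with fewer in 83.0%. Yki in wing discs was near the middle, with 17 peaks in the complex, against a median of 18. H3K4me3 lay at the other end: 5 peaks in the complex, against a median of 18 (quartiles 11 and 25), with more in 92.0% of windows.

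By length covered in place of number, the complex stood lower for both proteins. GAF peaks covered 6.02% of the window in wing discs, against 5.12% of the arms, and 5.69% of it in embryos, against 5.13%. By that measure 68.5% and 66.7% of windows had less GAF in wing discs and embryos. H3K4me3 peaks covered 1.81% of the window, against 8.97% of the arms. The combination of many GAF and few H3K4me3 peaks was examined after the values were seen, with the complex's own counts as cut-offs. It was not met in another window: 23 others had at least as many GAF peaks in both tissues, and these held at least 10 H3K4me3 peaks, with a median of 21. Windows just outside the cut-offs were similar. On 3L, that from 14380034 had 26 GAF peaks in wing discs, 25 in embryos and 7 H3K4me3 peaks, and that from 11230025 had 27, 22 and 6.

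**Figure D2:**
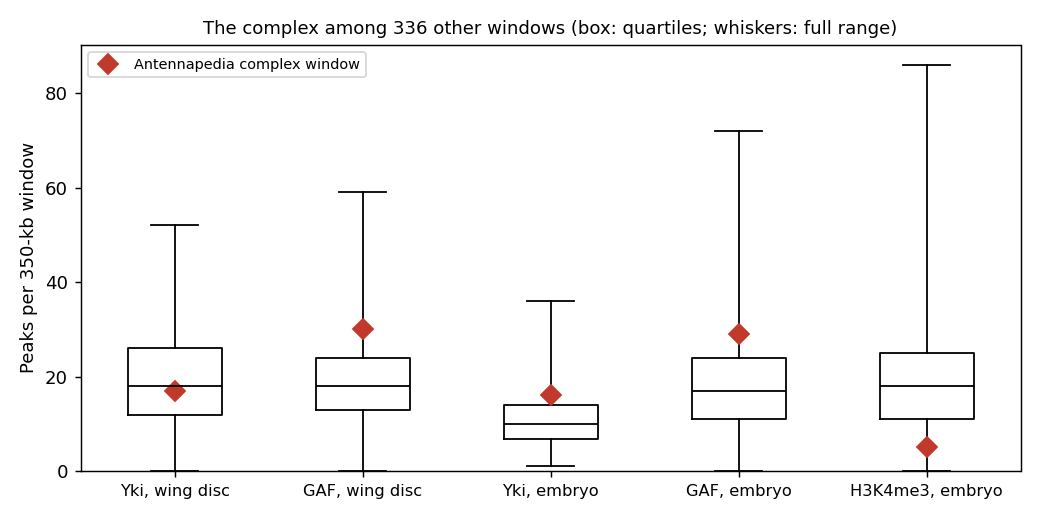
Number of peaks in the Antennapedia complex window (red diamonds) and in 336 other windows of 350 kb (boxes: quartiles and median; whiskers: lowest and highest), by list. The diamonds lie above the boxes for GAF in both tissues and for Yki in embryos, inside the box for Yki in wing discs, and below it for H3K4me3.

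Peaks of the complex were mostly narrow. In wing discs Yki peaks had a median width of 383 bp inside the window, against 418 bp over the whole list, and GAF peaks 461 bp, against 634.5 bp. In embryos Yki peaks had a median width of 322.5 bp, against 438 bp, and GAF peaks 481 bp, against 583 bp. The 5 H3K4me3 peaks had a median of 1330 bp, against 1262 bp over the list. Scores are the authors' own, of unknown scale, are carried only by the wing disc lists and rank peaks within 1 list. They had a median of 12.83 for Yki in the window, against 13.63 over the list, and of 32.9 for GAF, against 34.7. The upper quartile of GAF scores was 76.3 in the window, against 159.71 over the list.

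The part of the complex that carried most Yki peaks was not the same in the lists of the 2 tissues. In wing discs 11 of 17 Yki peaks lay in the Antp interval (64.7%, 95% Wilson interval 41.3 to 82.7) and 3 in the low end, which is the longer section. In embryos 4 of 16 Yki peaks lay in the Antp interval (25%, 10.2 to 49.5) and 8 in the low end. Per 100 kb this is 10.5 Yki peaks in wing discs, against 3.81 in embryos, in the Antp interval, and 1.62, against 4.32, in the low end. The Wilson intervals of the 2 tissues overlap, cover counting error only and treat the peaks as independent. Of the 11 Yki wing disc peaks in the Antp interval, 4 lay within 2298 bp, with gaps of at most 305 bp. Whether these 4 are separate binding sites was not tested, and the share was not recalculated with close peaks joined. The contrast depends on low-scoring peaks: the 11 had a median score of 10.19, against 13.63 over the list. It shrank in the top 50% of each list, taken by score in wing discs and by width in embryos. In wing discs 8 such peaks lay in the window, 3 in the Antp interval (37.5%) and 2 in the low end (25%). In embryos 4 did, 1 in the Antp interval (25%) and 2 in the low end (50%).

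The Antp interval held 15 of 30 GAF peaks in wing discs (50%, 33.2 to 66.8) and 12 of 29 in embryos (41.4%, 25.5 to 59.3). The low end held 10 in wing discs and 12 in embryos. Per 100 kb the Antp interval had 14.3 GAF peaks in wing discs and 11.4 in embryos, more than the low end with 5.41 in wing discs and 6.49 in embryos. The Scr interval and the stretch between Scr and Antp each had 2 GAF peaks in wing discs and 2 in embryos, and the high end 1 in each tissue.

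**Figure D3:**
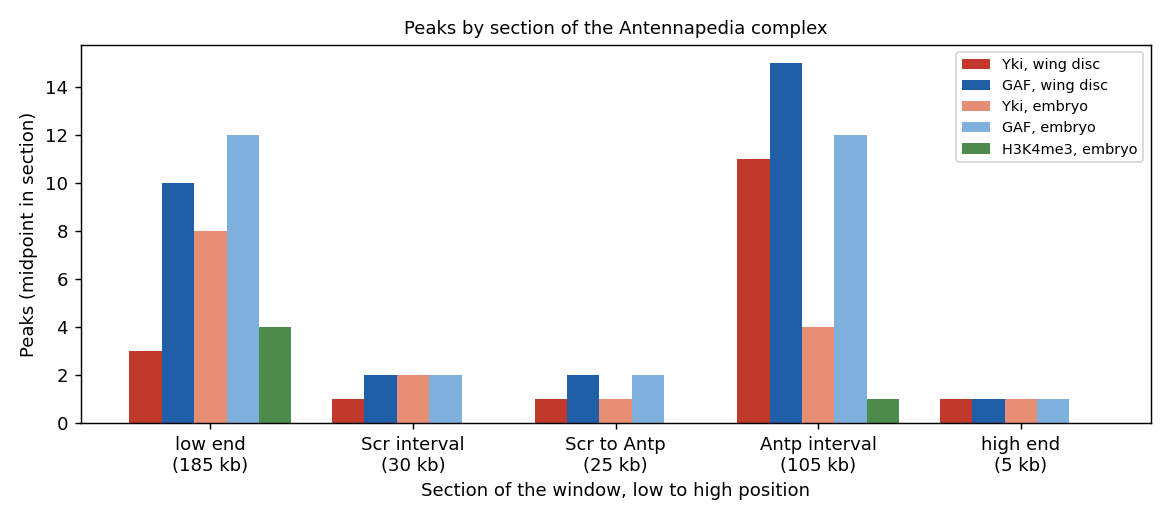
Number of peaks whose midpoint lies in each section of the window, from low to high position, with the length of the section in kb. Yki in wing discs has 11 peaks in the Antp interval and 3 in the low end, Yki in embryos 4 and 8, and the GAF lists have 10 to 15 peaks in both sections.

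Long stretches were empty, and whether they are longer than elsewhere in the genome was not measured. No Yki or GAF peak of either tissue lay in the 36.4 kb from 2680341 to 2716760, which begins inside the Scr interval and ends shortly below the Antp interval. This is the longest stretch of the window without a peak of any of the 5 lists, and the next longest, 19.4 kb from 2644934 to 2664299, lies just below the Scr interval. Yki in wing discs had no peak for 133.3 kb, from 2483944 to 2617263, in the part of the window with lab and pb. In that stretch 4 Yki peaks of embryos lay in full, at 2498110 to 2498418, 2534658 to 2534918, 2585226 to 2585510 and 2605805 to 2606048, none wider than 309 bp and none on a peak of another list. GAF in embryos had no peak in the first 72.0 kb of the window, where 3 GAF peaks of wing discs lay in full, with scores of 18.25, 7.24 and 12.65. The longest empty stretches were 48.9 kb for GAF in wing discs (2567733 to 2616585), 50.3 kb for Yki in embryos (2534919 to 2585225) and 116.0 kb for H3K4me3 (2642080 to 2758059). Such stretches are not particular to the complex. Directly below the low edge of the window, Yki in wing discs had no peak for 228.2 kb. There GAF in wing discs had none for 193.3 kb and Yki in embryos none for 193.4 kb. For GAF and H3K4me3 in embryos the distances were 60.6 and 5.72 kb.

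Touching peaks of the 4 Yki and GAF lists merged into 49 sites in the window. GAF was present in both tissues at 19 of them, and 9 sites had GAF in both tissues with no Yki in either, which is 18.4% of the sites of the window (Wilson interval 9.98 to 31.4), against 9.26% of the 11285 sites of the genome. Yki was present in both tissues at 6 sites (12.2%, 5.73 to 24.2), against 18.7% of the genome's sites. Single-list sites made up 55.1% of the window's sites, against 54.4% of the genome's. Yki in wing discs alone was at 6 (12.2%, against 17.5%), GAF in wing discs alone at 7 (14.3%, against 11.6%), Yki in embryos alone at 7 (14.3%, 7.10 to 26.7, against 3.83%) and GAF in embryos alone at 7 (14.3%, against 21.5%). These are descriptions of 1 region, and no test of a difference from the genome was made.

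Sites with peaks of the wing disc lists only made up 30.6% of the window's sites, against 36.2% of the genome's, and those of the embryo lists only 28.6%, against 26.8%. Both kinds lay in the low end and in the Antp interval, in numbers whose difference was not tested. In the low end, 5 of 20 sites had peaks of the wing disc lists only, 10 had peaks of the embryo lists only and 5 of both tissues. In the Antp interval, 10 of 23 sites had wing disc peaks only, 3 embryo peaks only and 10 both. Of the 3 runs of single-list sites at most 1 kb apart, the one with the most sites was in the Antp interval, and the other two had 2 sites each. It held 4 Yki wing disc peaks within 2298 bp, from 2775787 to 2778084, with scores of 12.44, 9.84, 16.55 and 10.19. No peak of another list lay on them, the nearest being 4.32 kb away.

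Of the 49 sites, 5 were present in all 4 lists (10.2%, 4.44 to 21.8), against 13.5% of the genome's sites. With the top 50% of each list by score or width, 1 site was present in all 4. The 5 are numbered here from low to high position. Site 1, in the part of the low end nearest to Scr, ran from 2616586 to 2618435. Site 2, in the Scr interval, ran from 2673989 to 2674977, and site 3, less than 1 kb below the Antp interval, from 2718798 to 2719654. Site 4, inside the Antp interval, ran from 2792286 to 2793162, and site 5, across its upper edge, from 2824173 to 2827209. Antp is a large gene known to have a pair of promoters far apart, and which sites, if any, lie on them was not measured.

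The highest GAF scores of the window lay at these sites. At sites 1 to 5 the GAF wing disc peak had scores of 411.29, 297.64, 329.53, 325.95 and 373.22. They are the 5 highest GAF scores of the window, and the other 25 GAF wing disc peaks lay between 7.24 and 140.15, with a median of 21.4. In the whole GAF wing disc list the 5 peaks stood at percentiles 86.6 to 94.3. Over the genome the GAF score was also higher at sites of all 4 lists, with a median of 264 over 1816 peaks, against 22.0 over the other 4512, so the direction at the complex is that of the whole list. In the window the lowest of the 5, 297.64, lay above that genome median.

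Yki scores at the same sites had a higher median than those elsewhere in the window but overlapped them. At sites 1 to 5 the Yki wing disc peak had scores of 18.57, 16.13, 36.45, 10.19 and 20.17. Site 3, just below the Antp interval, had the highest Yki score of the window, at percentile 94.9 of the list. Site 4, inside the Antp interval, had a score at percentile 24.2. The other 12 Yki wing disc peaks ranged over 9.15 to 22.22 with a median of 11.5, against 18.57 at the 5 sites. Yki scores of the whole list were also higher at sites of all 4 lists, with a median of 18.8 over 2301 peaks, against 12.1 over the other 4190. The next highest Yki scores after site 3 were 22.22 at 2733884 to 2734275, in the Antp interval, then 20.17 at site 5, 18.57 at site 1 and 16.55 in the group of 4 peaks described above.

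**Figure D4:**
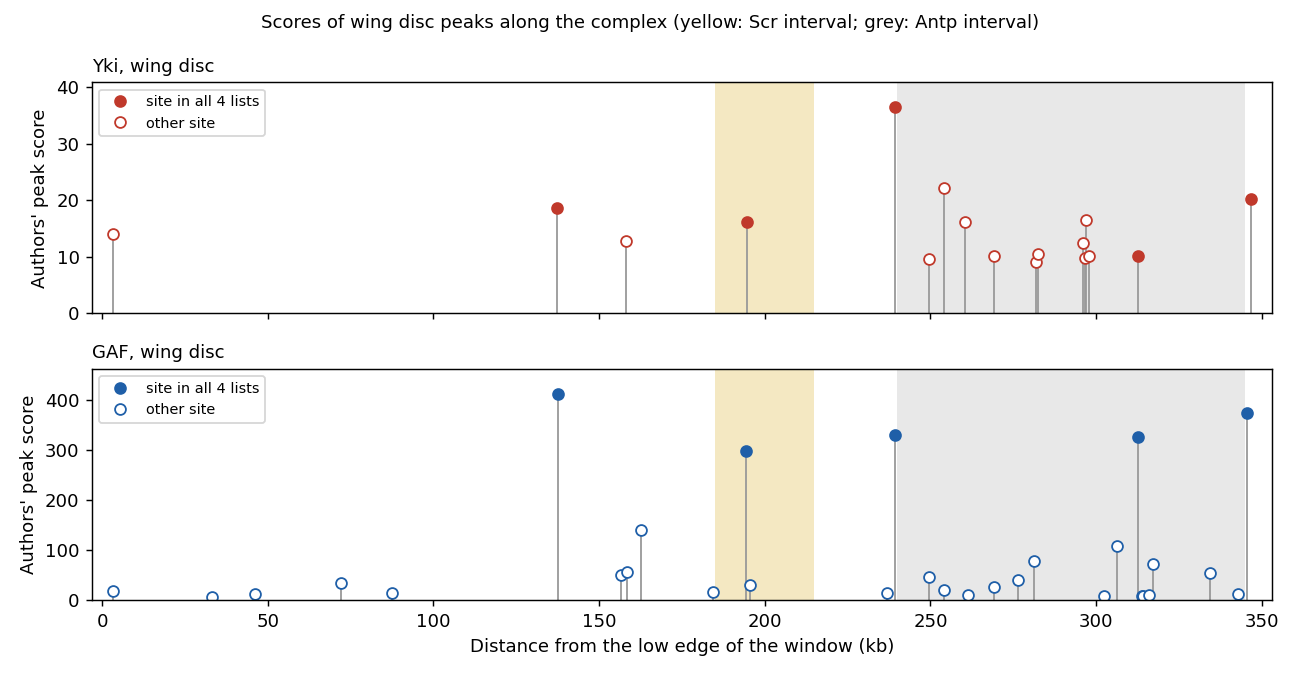
The authors' score of each wing disc peak against its distance from the low edge of the window in kb, for Yki (top) and GAF (bottom), with filled circles for peaks at sites in all 4 lists. The 5 filled GAF circles, from 297.64 to 411.29, are above all open ones, which reach 140.15, and the filled and open Yki circles overlap.

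At all 5 sites both Yki peaks lay wholly inside the GAF wing disc peak, and the Yki peaks of the 2 tissues were nearly in register. Their midpoints were 2, 5, 25, 92 and 50 bp apart at sites 1 to 5, and they shared 354, 336, 282, 312 and 566 bp. The sites were chosen because peaks of the 4 lists touch, and the GAF wing disc peaks are wider than the Yki peaks, which favours such positions. The same values were not taken at the other sites of all 4 lists in the genome, so they are not shown to be particular to the complex. At sites 1 to 4 the Yki midpoints were offset from the GAF wing disc midpoint by -190 to 78 bp. At site 5 the GAF wing disc peak was 3037 bp wide and the GAF embryo peak 2592 bp, and the Yki midpoints lay 947 bp (wing discs) and 897 bp (embryos) above the GAF wing disc midpoint, toward the high edge of the window. The GAF embryo list had 2 peaks at site 1, of 729 and 371 bp, where the wing disc list had 1 of 1764 bp.

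**Figure D5:**
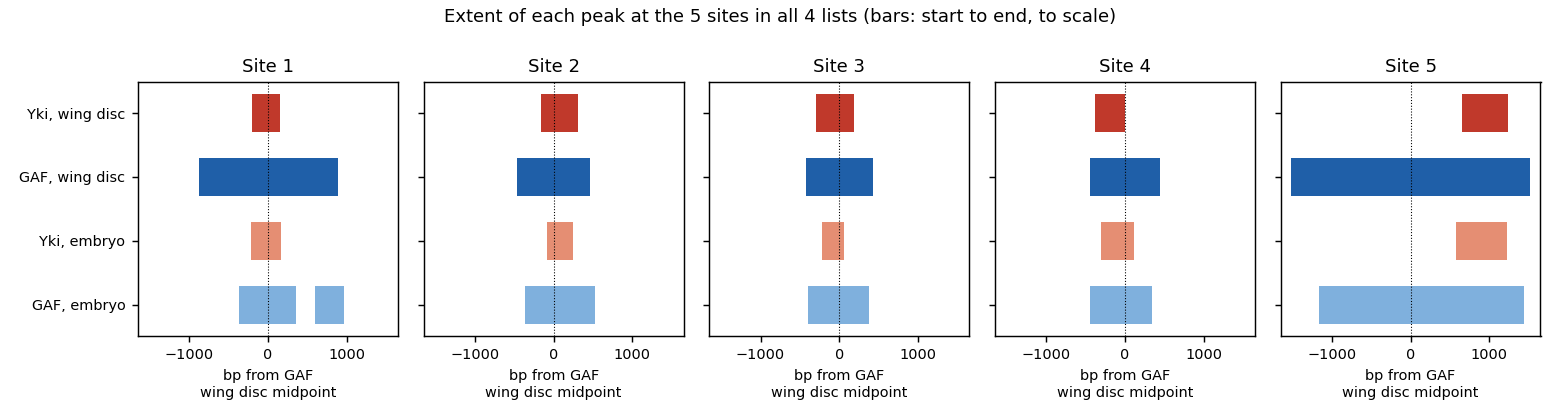
Start and end of each peak at the 5 sites in all 4 lists, in bp from the midpoint of the GAF wing disc peak. The Yki bars of both tissues fall inside the GAF wing disc bar at each site and toward its high end at site 5, where the GAF bars are widest.

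Over the whole window, the sites of all 4 lists included, the overlap of Yki with GAF was partial. In wing discs 11 of 17 Yki peaks in the window shared at least 1 bp with a GAF peak (64.7%, 41.3 to 82.7), against 63.0% of all Yki wing disc peaks. In embryos 8 of 16 did (50%, 28.0 to 72.0), against 68.8% of all Yki embryo peaks. Of the GAF peaks, 11 of 30 in wing discs carried Yki (36.7%, 21.9 to 54.5), against 51.8% of the list, and 7 of 29 in embryos (24.1%, 12.2 to 42.1), against 32.7% of the list. The interval of each of these 4 shares includes the share of its list. Away from the 5 sites, 6 of 12 Yki peaks in wing discs lay on GAF, against 43.1% of the list's Yki peaks off sites of all 4 lists, and 3 of 11 in embryos, against 36.5%. With a reciprocal overlap of 50%, 35.3% of Yki peaks of the window lay on GAF in wing discs, against 20.3% of the list under the same definition, and 12.5% in embryos, against 15.4%. The 6 Yki wing disc peaks without GAF were 0.589 to 6.36 kb from the nearest GAF wing disc peak, and the 8 Yki embryo peaks without GAF were 2.14 to 53.6 kb from the nearest GAF embryo peak.

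Positions were next compared between the tissues. Of the GAF wing disc peaks in the window, 20 of 30 lay on a GAF embryo peak (66.7%, 48.8 to 80.8), against 61.1% of the list, and 22 of 29 GAF embryo peaks lay on a GAF wing disc peak (75.9%, 57.9 to 87.8), against 59.2%. Of the Yki wing disc peaks 6 of 17 lay on a Yki embryo peak (35.3%, 17.3 to 58.7), against 38.7% of the list. Of the Yki embryo peaks 6 of 16 lay on a Yki wing disc peak (37.5%, 18.5 to 61.4), against 66.2% of the list. The intervals include the share of the list except for the Yki embryo peaks, whose interval ends below it. With a reciprocal overlap of 50% the GAF shares were 43.3% and 44.8%, against 41.5% and 40.6% of the lists, and the Yki shares again 35.3% and 37.5%, against 24.2% and 42.0%, all within the intervals. The Yki sites found in both tissues were the 5 above and 1 more in the Antp interval, at 2733844 to 2734363, where GAF was present in wing discs but not in embryos. The 6 Yki pairs had midpoints 2 to 92 bp apart, and the 20 GAF pairs 1 to 412 bp, with a median of 59 bp.

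Across proteins and tissues, 7 of 17 Yki wing disc peaks in the window lay on a GAF embryo peak (41.2%, 21.6 to 64.0), against 43.2% of the list. In the other direction 9 of 16 Yki embryo peaks lay on a GAF wing disc peak (56.3%, 33.2 to 76.9), against 72.2% of the list.

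A further cluster of embryo peaks lay between sites 1 and 2, from 2635763 to 2644933. It held 5 GAF and 3 Yki embryo peaks, among them the second widest GAF embryo peak of the window, 2413 bp from 2641066 to 2643478, and the widest Yki embryo peak, 792 bp from 2642051 to 2642842. In wing discs the same stretch had 3 GAF peaks, with scores of 49.68, 56.42 and 140.15, and 1 Yki peak with a score of 12.83. The 5 widest GAF embryo peaks of the window were those of site 5 (2592 bp), this one, the 2 at 2635763 to 2637126 (1364 bp) and 2637304 to 2638435 (1132 bp) in the same cluster, and the peak of site 2 (889 bp). The 5 widest Yki embryo peaks were the one of 792 bp, site 5 (644 bp), 520 bp at 2733844 to 2734363, 496 bp at 2636318 to 2636813 in the cluster, and site 4 (417 bp).

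Sites shared by all 4 lists held no H3K4me3 peak. None of the 5 overlapped one (0%, Wilson interval 0 to 43.4), against 65.8% of the 1525 such sites of the genome (63.4 to 68.2). The nearest H3K4me3 peak was 21.9, 31.9, 38.4, 34.0 and 64.6 kb away from sites 1 to 5. Of all 49 sites 3 overlapped H3K4me3 (6.12%, 2.10 to 16.5), against 36.0% of the sites of the genome. In wing discs 1 of 17 Yki peaks in the window (5.88%, 1.05 to 27.0) and 2 of 30 GAF peaks (6.67%, 1.85 to 21.3) did, against 52.2% and 37.2% of the lists. In embryos 1 of 16 Yki peaks (6.25%, 1.11 to 28.3) and 2 of 29 GAF peaks (6.90%, 1.91 to 22.0) did, against 45.2% and 24.6%. Each of these 4 intervals ends below the share of its list. The 4 shares are not separate results, because they rest on the same 3 sites. H3K4me3 covered 1.81% of the window, against 8.97% of the arms. Whether the shares show more than this scarcity of the mark was not tested. With midpoints within 500 bp in place of 1 shared bp, all 4 shares were 0%. By that definition 23.0% of Yki and 15.3% of GAF peaks of the whole wing disc lists lay on H3K4me3, and 19.8% of Yki and 11.5% of GAF peaks of the whole embryo lists. The upper bounds of the window's shares were then 18.4%, 11.4%, 19.4% and 11.7%, so for GAF in embryos the interval includes the share of the list. The wing disc shares set larval binding against an embryo mark.

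Of the 5 H3K4me3 peaks, 2 carried Yki and 3 GAF in wing discs, against 44.9% and 37.4% of the H3K4me3 list, and 1 carried Yki and 1 GAF in embryos, against 24.3% and 24.6%. The first and the next, at 2481901 to 2483230 (1330 bp) and 2483485 to 2485683 (2199 bp), lay at the low edge of the window, and a Yki and a GAF peak of wing discs overlapped both. No Yki or GAF embryo peak lay on either. The peak at 2589497 to 2590260 (764 bp), in the low end, was 1.65 kb from the nearest Yki or GAF peak. The peak at 2640292 to 2642079 (1788 bp) lay in the cluster of embryo peaks between sites 1 and 2 and overlapped GAF in both tissues and Yki in embryos. The peak at 2758060 to 2758324, in the Antp interval, was 265 bp wide, at percentile 7.39 of the list by width, and overlapped no Yki or GAF peak. No H3K4me3 peak lay in the Scr interval, between Scr and Antp or in the high end.

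No peak crossed an edge of the window. The peaks nearest to the edges inside were H3K4me3 1.90 kb above the low edge and GAF in wing discs 2.79 kb below the high edge. Outside, the nearest peak beyond the high edge was a GAF embryo peak of 329 bp only 81 bp away, and the nearest below the low edge was an H3K4me3 peak of 244 bp at 5.72 kb.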

How the data were processed

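The values analysed were 5 peak lists, 1 per antibody and tissue, of D. melanogaster embryos and wing discs. The authors called the peaks; the submitters' processing notes name CASAVA 1.7.0, BWA, Bowtie and the dm3 build. Per the deposited peak names, MACS was used for wing discs; not given in the sources used here are the embryo caller, any threshold, the use of input and how replicates were combined. Per the labels' protocols, libraries were tagmented and amplified by PCR. The deposited wing disc lists hold the authors' score per peak, of unknown scale. Width and number of peaks move with depth and threshold, and the tissues may have been called differently.

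Starts were counted from 1. A peak belonged to the window, or overlapped another, when it shared at least 1 bp, and to the section that held its midpoint. Peaks of the 4 Yki and GAF lists that touched were merged into sites. Shares carry 95% Wilson intervals. Windows of the same length were laid along 5 arms up to the last peak. Python 3.11.15, numpy 2.4.6, pandas 2.3.3, scipy 1.17.1 and matplotlib 3.10.9 were used, and overlaps were checked on simulated lists with planted overlaps. The genes, sections and lists were chosen with earlier results of these data known. Regions named are the sites in all 4 lists, the 5 highest scores (wing discs) or widths (embryos) per list, each H3K4me3 peak and the longest empty stretches; others named were chosen after their values were seen. No sequence was analysed here.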

Additional observations from a re-analysis of the deposited data

How the results depend on the processing

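No paired analysis was possible because each antibody and tissue has 1 list. For the same reason no replicate could be left out in turn. Of 114 alternative values, 77 stayed within the counting interval of the reported value or, for counts, within 1.5 times of it. The 77 include 12 that place peaks in the window by midpoint and 5 by whole width. These had to stay the same, because no peak crossed an edge of the window. All of those that move the section edges by 5 kb, merge peaks up to 500 bp apart or move the windows by 50% of their length also stayed. A reciprocal overlap of 50% left the overlap of Yki between the tissues as it was and lowered the other shares inside the window. Yki on GAF fell to 35.3% in wing discs and 12.5% in embryos, against 20.3% and 15.4% of the lists under the same definition. GAF on Yki fell to 20% in wing discs and 6.90% in embryos, against 20.8% and 8.93%. GAF wing disc peaks on GAF embryo peaks fell to 43.3%, against 41.5%, and the other way to 44.8%, against 40.6%. Yki wing disc peaks on GAF embryo peaks fell to 11.8%, against 14.4%, and Yki embryo peaks on GAF wing disc peaks to 18.8%, against 21.4%. With that overlap, or with midpoints within 500 bp, 0% of the window's peaks of each of the 4 Yki and GAF lists lay on H3K4me3. The shares of the whole lists with that overlap were 7.15% of Yki and 7.55% of GAF in wing discs, and 6.03% and 5.64% in embryos. Each lay below the upper bound of the window's interval (18.4%, 11.4%, 19.4% and 11.7%), so this definition does not separate the window from the lists. By covered length, the windows with less than the complex were 35.1% for Yki and 68.5% for GAF in wing discs, and 60.1% for Yki and 66.7% for GAF in embryos. Keeping the top 50% of each list left 8 Yki and 15 GAF wing disc peaks, 4 Yki and 12 GAF embryo peaks and 3 H3K4me3 peaks, and 22 sites with 1 in all 4 lists. There, 3 of 4 Yki embryo peaks lay on GAF (75%). The Antp interval held 3 of 8 Yki wing disc (37.5%), 3 of 12 GAF embryo (25%) and 0 of 3 H3K4me3 peaks (0%). The low end held 3 of 3 H3K4me3 peaks (100%). The longest empty stretch became 71.9 kb for GAF in wing discs, 156.3 kb for Yki, 137.1 kb for GAF and 187.9 kb for H3K4me3 in embryos, and 68.0 kb over the 4 lists. Fewer peaks enter by construction; other causes were not tested. Depth is unknown, so a missing peak is not evidence of no binding.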

Other observations

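Peaks of 1 protein in a single tissue also came in close groups elsewhere in the complex. In the embryo GAF list, 2 peaks present in no other list lay within 894 bp, from 2619177 to 2620070, just above the first site of all 4 lists. In the wing disc GAF list, 2 such peaks lay within 1520 bp, from 2795819 to 2797338 in the Antp interval, with scores of 10.45 and 71.95. The merged site at 2793299 to 2794210, between these and the fourth site of all 4 lists, had 2 GAF peaks in wing discs, with scores of 8.11 and 8.49, and 2 in embryos, and no Yki peak.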
